A study of Mus musculus with 48 samples.

Results

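The 9 transcripts described here are genes of the mouse genome that carry only a clone or model name: Gm13016, Gm11884, Gm29084, 2310043L19Rik, Gm43520, Gm45121, AC125371.1, 3222401L13Rik and 4833418N02Rik. They were picked by symbol because their values were higher in mutant than in control cortex in an age series that starts at birth, and they are 9 of 54100 rows of that table, of which 29828 have an unnamed symbol of this kind. All 9 were also found, by Ensembl identifier, in the other cortex tables, with 55401 and 48785 rows. AC125371.1 is listed as Gm49695 in the P21 table and in the annotation.

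RNA was sequenced from mouse cortex, and values are FPKM, fragments scaled by exon length and by the mapped fragments of the library. In the age series, cortex labelled Ctrl and cortex labelled mG-cKO was taken on postnatal days 1, 7, 14 and 45 (P1 to P45), with 3 libraries per group at P1 and P45 and 2 at P7 and P14, where the third replicates were not analysed here. At P21 there were 5 groups of 3 libraries: untreated Ctrl, untreated mG-cKD and mG-cKO, and both of these latter genotypes given RTI. A further table has P1 cortex in 3 CT libraries and 3 VPA libraries. Sample titles call the mG-cKD animals Het and the mG-cKO animals MT or M; the labels neither name the altered gene, the driver of its deletion or the strain, nor spell out mG, RTI or VPA, so loss of the gene could not be checked. The labels also do not say whether replicates are separate animals, and p-values then measure only the spread between these libraries.

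Long noncoding RNAs are transcripts that are spliced and polyadenylated much like mRNAs but have no long reading frame. Most are expressed in few tissues and at low levels. Many start in or near endogenous retroviruses, whose long terminal repeats can act as promoters, and in somatic cells DNA methylation and histone H3 lysine 9 methylation keep many such starts silent. The series is titled for retrovirus-derived RNA-DNA hybrids, and no label says how these 9 transcripts bear on them.

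Coordinates below are on mm10 (GRCm38), from GENCODE M21. Gm13016 (chr4:140380630-140385574, plus strand), Gm11884 (chr4:23260784-23392503, plus), 2310043L19Rik (chr1:177641542-177642943, minus), Gm45121 (chr7:128590926-128593343, minus) and AC125371.1 (chr16:31469926-31476353, plus) are noncoding genes outside other genes in that annotation. They have 3, 5, 3, 2 and 2 exons. The single exon of 3222401L13Rik lies just before the gamma protocadherin cluster and is placed with its neighbours further on. Gm29084 (chr1:62534491-62535942, minus) is a single exon on the strand opposite to Pard3b, inside an intron of that cell polarity gene. Gm43520 (chr3:116818815-116818978, plus) is a single exon of 164 bases in the provisional class TEC. 4833418N02Rik (chr17:87274886-87282814, minus) has 4 annotated transcripts and starts 72 bases from the start of Ttc7, which runs the other way. No member shares exon bases with another annotated gene. Strand handling in library preparation and counting is not stated, so reads of Gm29084 and of the Pard3b intron around it could not be told apart.

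Gm29084 and Gm43520 differed from the other members in sequence: each is a copy of a dispersed sequence. Against all GENCODE M21 transcripts, matches of at least 100 bases at 95% identity or more linked Gm29084 to 30 other genes and Gm43520 to 11, and these matches covered 100% of both transcripts. Together these were 39 genes on 11 chromosomes, 26 of them of class TEC, and 2 matched both members. Of the 11, Gm43535 was identical to Gm43520 over all 164 bases. The sequences below are from the annotated transcripts and are printed because near-identical copies decide how reads of these 2 members can be assigned. For Gm29084, bases 1230 to 1452 of the transcript are shown (chr1:62534491-62534713, minus strand), a stretch of 223 bases that 20 other genes carry at 95% identity or more.
Gm43520: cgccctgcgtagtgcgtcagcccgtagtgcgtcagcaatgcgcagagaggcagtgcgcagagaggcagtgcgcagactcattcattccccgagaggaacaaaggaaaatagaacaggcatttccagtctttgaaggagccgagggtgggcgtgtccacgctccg
Gm29084: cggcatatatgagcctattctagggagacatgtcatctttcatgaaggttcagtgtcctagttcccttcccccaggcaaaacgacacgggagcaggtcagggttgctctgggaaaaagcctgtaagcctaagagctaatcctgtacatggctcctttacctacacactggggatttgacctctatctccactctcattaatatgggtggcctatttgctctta

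Gm13016, 2310043L19Rik, Gm45121 and 4833418N02Rik had no match of this length to another gene even at 80% identity. Gm11884 matched 4 genes over 23.1% of its length, AC125371.1 matched 31 over 35.2%, and 3222401L13Rik matched 3181 over 3.7%, none of them at 95%. Reads of Gm29084 and Gm43520 are therefore uncertain in origin and those of the other 7 are less exposed to copies.

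RefSeq (GRCm38.p6) gave a promoter window, 250 bases before to 50 after the start, for 4 members, and CpG content separated them. The 3 windows printed here carry CpG dinucleotides in capitals, and they show the spread from CpG-poor to CpG-rich. They are 2310043L19Rik (chr1:177642894-177643193, minus), Gm13016 (chr4:140380217-140380516, plus) and 4833418N02Rik (chr17:87282765-87283064, minus), and the last also covers the annotated start of Ttc7.
2310043L19Rik: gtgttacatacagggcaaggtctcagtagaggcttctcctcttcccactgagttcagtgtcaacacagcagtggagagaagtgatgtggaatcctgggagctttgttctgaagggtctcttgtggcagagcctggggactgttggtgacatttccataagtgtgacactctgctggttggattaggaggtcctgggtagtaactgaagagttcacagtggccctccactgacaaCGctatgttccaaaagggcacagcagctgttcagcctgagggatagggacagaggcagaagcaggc
Gm13016: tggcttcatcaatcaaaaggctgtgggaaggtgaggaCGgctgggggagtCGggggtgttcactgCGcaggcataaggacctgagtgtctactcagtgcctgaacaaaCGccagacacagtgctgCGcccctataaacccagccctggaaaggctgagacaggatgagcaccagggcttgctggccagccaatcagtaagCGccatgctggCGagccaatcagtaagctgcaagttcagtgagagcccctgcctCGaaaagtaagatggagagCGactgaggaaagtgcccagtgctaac
4833418N02Rik: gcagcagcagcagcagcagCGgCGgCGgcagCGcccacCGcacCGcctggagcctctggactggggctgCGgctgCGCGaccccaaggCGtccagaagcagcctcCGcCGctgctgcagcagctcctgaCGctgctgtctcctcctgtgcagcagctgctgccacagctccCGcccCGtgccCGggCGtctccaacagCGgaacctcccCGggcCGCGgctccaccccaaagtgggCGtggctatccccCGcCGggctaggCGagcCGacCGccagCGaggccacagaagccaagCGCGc

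The window of 2310043L19Rik held 1 CpG, as did that of Gm11884, whose RefSeq start lies inside the GENCODE gene body; 5.4% of 32851 mouse promoter windows have fewer. The Gm13016 window held 9, against a median of 7, and that of 4833418N02Rik held 30, more than in 88.3% of windows. A set of 4 motifs, chosen after the sequences were seen, was looked for on both strands. CACGTG, an E-box that MAX dimers bind, was in none of the 4 windows and in 7.2% of all promoters. GGCGGGA, an E2F-type element, occurred once in the window of 4833418N02Rik and in 11.3% of all promoters. CCAAT, which NF-Y binds, occurred 2 times in the Gm13016 window and is found in 37.4% of all promoters. The TATA box form TATAAA occurred 1 time there and is found in 13.6% of all promoters.

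Libraries were not all processed alike, which touches every level below. In 21 of 41 libraries FPKM times exon length gave whole reads, within 0.05 reads, for 98.6% to 99.2% of low values, and these had 13540000 to 30940000 implied reads. In the other 20, which are all P21 libraries, replicate 3 of both genotypes at P1 and P45, and VPA 3, only 11.6% to 17.1% were whole, and their depth is unknown. FPKM summed to 238106 to 258920 per library in the 16 whole-read age libraries and to 364520 to 381834 in the other 4, so levels are compared within a table and replicate 3 is given apart. Replicates 1 and 2 at P45 also stood apart in both genotypes, with 19052 to 19137 genes at 1 FPKM or more, against 13673 to 14614 in the other age and P21 libraries, P45 replicate 3 included. Every age order below that includes P45 rests on these libraries, and their part in it was not tested.

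At P1, every mG-cKO library lay above every Ctrl library for all 9 members, which is what chose them and is given as a description without a test; 2.74% of 19733 genes of the table separated in this way. 2310043L19Rik had the highest mG-cKO level per length. It was at 44.5, 48.1 and 28.6 FPKM in the 3 mG-cKO libraries and at 0.267, 0.0771 and 0 in Ctrl. No FPKM above 0 was listed for Gm11884 in the 3 Ctrl libraries, and in mG-cKO it was at 13.4, 12.2 and 6.12; in the 2 whole-read mG-cKO libraries these levels stand for 163 and 146 reads. For both, replicate 3 was the lowest of the mG-cKO libraries and still far from any control.

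AC125371.1, Gm45121, Gm29084 and Gm43520 were likewise near 0 in Ctrl at P1. AC125371.1 was at 6.67, 7.17 and 3.10 FPKM in mG-cKO and at most at 0.0811 in Ctrl. Gm45121 was at 3.25, 2.46 and 2.61 in mG-cKO and at most at 0.162 in Ctrl. For these 2, as for Gm11884, every Ctrl value was far below the lowest mG-cKO value. Gm29084 was at 2.47, 1.62 and 2.35 FPKM in mG-cKO, and in Ctrl it was at 0, 0 and 0.0393. Gm43520 was listed at 0 in Ctrl and at 4.5, 1.30 and 6.32 in mG-cKO. Because Gm43520 is short, its level of 1.30 stands for 4 reads, and 3 reads amounted to between 0.591 and 1.05 FPKM in the whole-read age libraries, so its single values are the least precise of the set.

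Gm13016, 3222401L13Rik and 4833418N02Rik had a measurable level in Ctrl cortex at P1. Gm13016 was at 0.434, 0.501 and 0.310 FPKM in Ctrl and at 4.69, 3.66 and 3.31 in mG-cKO, a ratio of means of 9.38. 3222401L13Rik was at 0.400, 0.317 and 0.440 in Ctrl and at 1.84, 2.0 and 1.61 in mG-cKO, a ratio of 4.72. 4833418N02Rik was at 1.98, 1.74 and 1.5 in Ctrl and at 10.6, 10.7 and 9.54 in mG-cKO, a ratio of 5.91. In all 3 the mG-cKO libraries lay close together and clear of Ctrl.

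**Figure D1:**
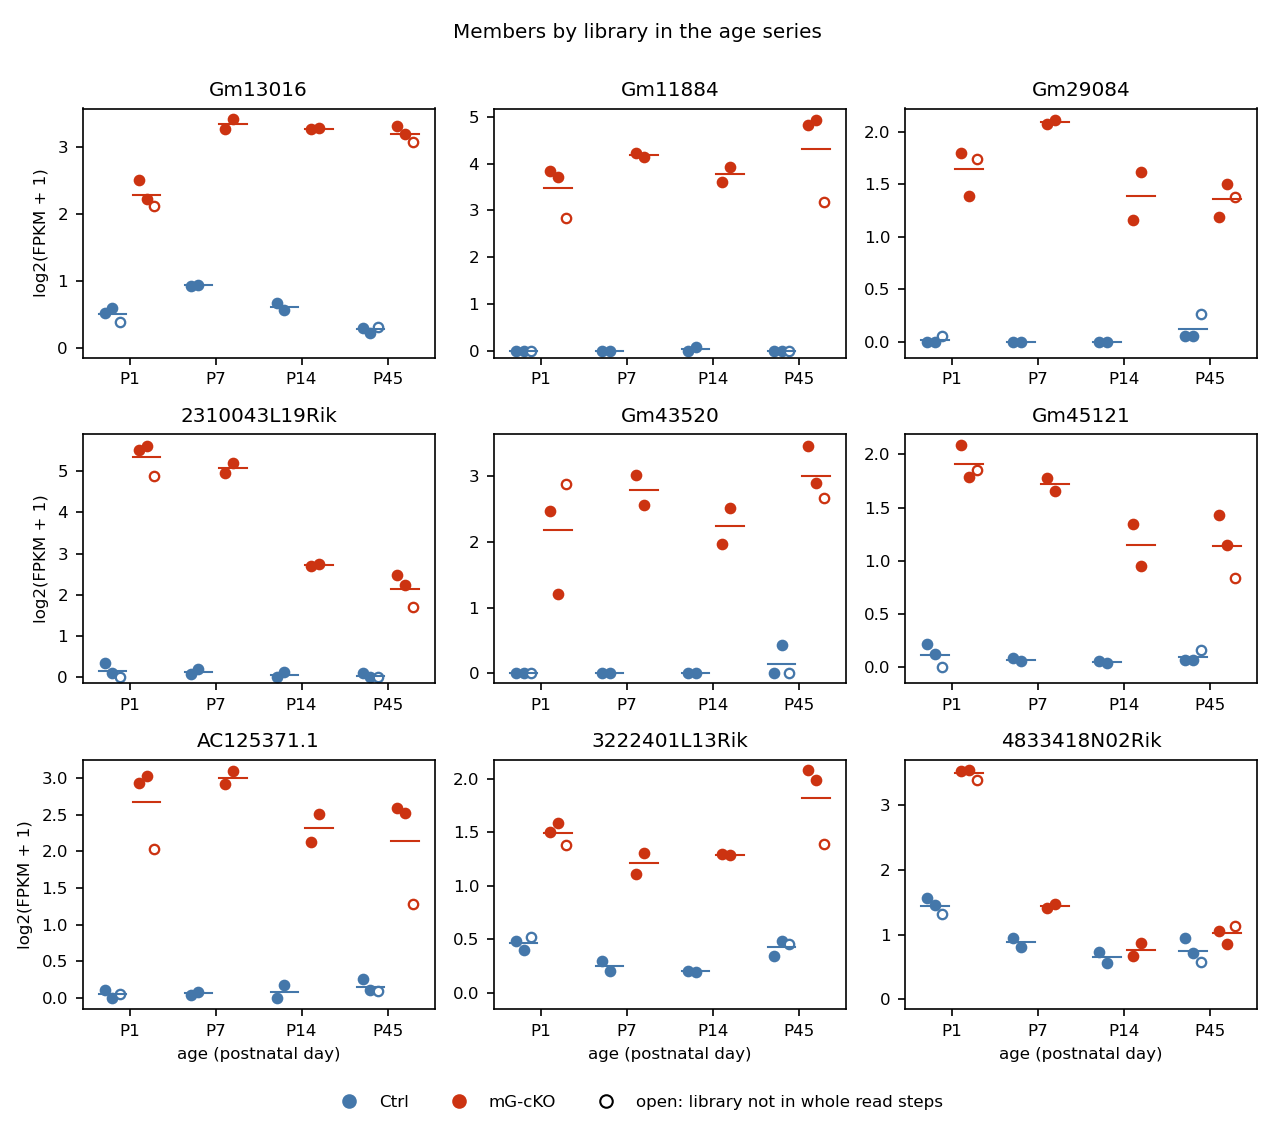
Level of each member, as log2(FPKM + 1), in every library of the age series at postnatal days 1, 7, 14 and 45; blue points are Ctrl, red points mG-cKO, open points are libraries whose values are not whole read steps, and lines are group means. 8 of 9 members keep mG-cKO above Ctrl at every age, while 4833418N02Rik has overlapping groups at P14 and P45.

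From P7 on, the members followed different courses in mG-cKO cortex while Ctrl stayed low. The lowest mG-cKO value exceeded the highest Ctrl value for 9 of 9 members at P7, 8 of 9 at P14 and 8 of 9 at P45, where 20%, 23.5% and 4.69% of all 19733 genes did so; with 2 libraries a group at P7 and P14 this separation is easily met. Over all 8 whole-read Ctrl libraries, Gm11884 and Gm43520 had 1 read each in total, Gm29084 had 2, 2310043L19Rik had 11 and Gm45121 had 13. Over the 8 whole-read mG-cKO libraries, the same genes had 1873, 141, 513, 2446 and 368 reads.

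The sharpest change with age was in 2310043L19Rik and 4833418N02Rik. 2310043L19Rik went from 44.5 and 48.1 FPKM at P1 in replicates 1 and 2 to 29.9 and 35.5 at P7, 5.51 and 5.75 at P14 and 4.62 and 3.74 at P45, an order in which no neighbouring ages overlapped. The mean of these 2 replicates was 11.1 times higher at P1 than at P45. 4833418N02Rik went from 10.6 and 10.7 at P1 to 1.65 and 1.77 at P7, 0.588 and 0.824 at P14 and 1.09 and 0.819 at P45. Its Ctrl level also went down, from a mean of 1.74 ± 0.236 (SD, n = 3) at P1 to 0.688 ± 0.216 (SD, n = 3) at P45, and the mG-cKO to Ctrl ratio of means was 5.91 at P1, 2.03 at P7, 1.24 at P14 and 1.5 at P45. At P14 and P45 its groups overlapped.

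Gm13016 took the opposite course relative to Ctrl. In mG-cKO it was at 8.57 and 9.63 FPKM at P7, at 8.64 and 8.66 at P14 and at 8.94, 8.12 and 7.36 at P45, ages that overlapped each other and all lay above P1. In Ctrl it was at 0.896 and 0.914 at P7 and at 0.231, 0.166 and 0.233 at P45, so that the ratio of means was 10.1 at P7, 16.4 at P14 and 38.8 at P45. 3222401L13Rik was at 3.23, 2.95 and 1.62 in mG-cKO at P45 and at 0.270, 0.400 and 0.369 in Ctrl, a ratio of means of 7.51. Among its replicates 1 and 2 the P45 level was 2.35 times that of P7, its lowest age, while P45 replicate 3, at 1.62, was close to the P7 values of 1.16 and 1.47.

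Gm11884 was highest at P45 in the whole-read libraries, at 27.1 and 29.5 FPKM, against 17.8 and 16.7 at P7, but replicate 3 at P45 was at 8.02. Its replicate 3 was thus the lowest mG-cKO library at both ages that have one. AC125371.1 went from 6.56 and 7.52 at P7 to 3.38 and 4.69 at P14 and to 5.03, 4.76 and 1.44 at P45. Gm45121 was at 1.55 and 0.937 at P14 and at 1.69, 1.22 and 0.794 at P45, below both of its P1 whole-read values. Gm29084 was highest at P7, at 3.21 and 3.33. Gm43520 had its highest mean at P45, at 9.98, 6.43 and 5.31, but these overlapped with its P7 values of 7.03 and 4.87. Among replicates 1 and 2 the highest and the lowest age differed by 1.75 to 2.83 times in the 7 members other than 2310043L19Rik and 4833418N02Rik.

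The dispersed copies of Gm29084 and Gm43520 were read very differently by the 2 kinds of library. Among the 39 related genes, Noct, Slc38a6 and Rab3gap1 code for proteins with known levels in Ctrl cortex and were set aside after their values were seen. The other 36 summed to 7.54 and 5.98 FPKM in the whole-read mG-cKO libraries at P1 and to 66.4 in replicate 3, and to 0.257 and 0.947 in the whole-read Ctrl libraries and 2.08 in Ctrl replicate 3. At P45 they summed to 19.8 and 14.3 in the whole-read mG-cKO libraries and to 79.0 in replicate 3, against 3.64 to 4.06 in the 3 Ctrl libraries. The copies were thus higher in mG-cKO in both kinds of library, by amounts that differed with the kind. In whole-read mG-cKO libraries at P1, 17 and 21 of the 36 were listed at 0, against 1 in replicate 3.

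**Figure D2:**
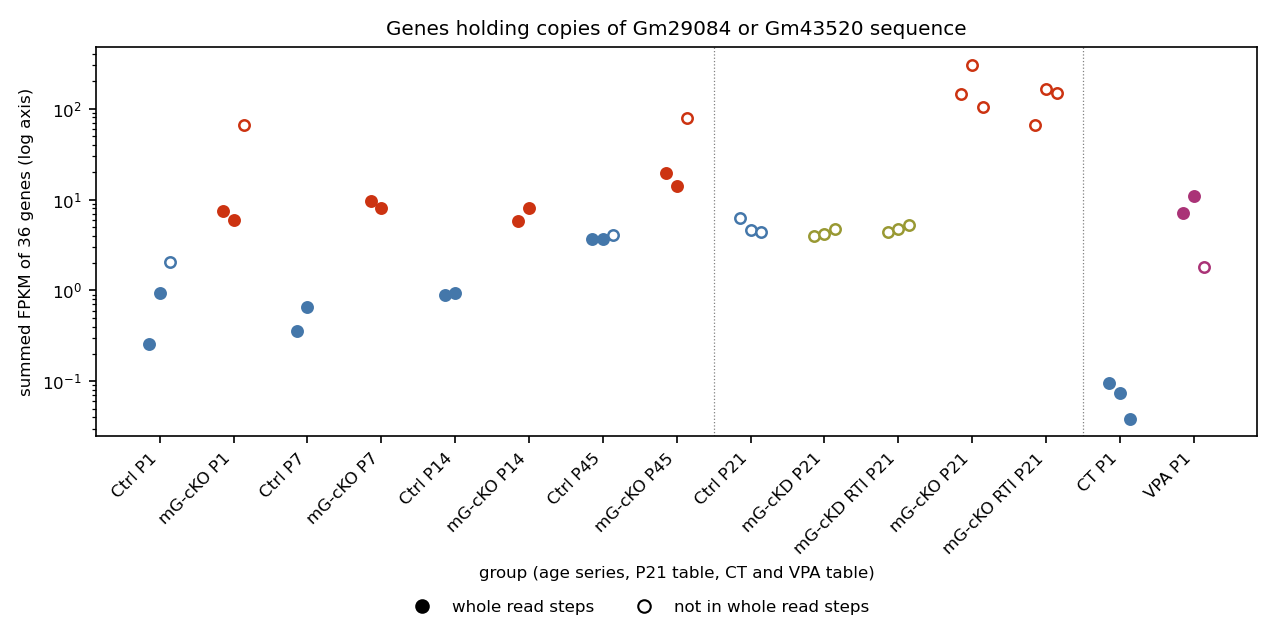
Summed FPKM, on a log axis, of the 36 genes that carry sequence of Gm29084 or Gm43520 at 95% identity or more, for each library by group; dotted lines part the 3 tables, filled points are libraries in whole read steps and open points are not. The mG-cKO libraries lie above Ctrl at each age, with open points highest, and the P21 mG-cKO libraries reach 105 to 304.

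The P21 libraries were not among those that chose the members, although the members and tests were fixed with results of these data known. At P21, 8 of 9 members rose in mG-cKO against Ctrl and 4833418N02Rik did not pass the test (limma on log2(FPKM + 1), Benjamini-Hochberg adjusted p below 0.05); of all 16420 genes tested 1.35% rose. All 9 members passed the filter of a mean of 0.5 FPKM over the 15 libraries, 8 of them only through the mG-cKO libraries. Without that filter 8 of 9 again rose, against 0.753% of 38131 genes. Of 2597 other unnamed genes that passed the filter 2.27% rose. The median difference of the members was 2.0 on the log2 scale, against 0.065 over all genes tested.

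Gm13016 and Gm11884 had the smallest adjusted p-values of the members. Gm13016 was at 0.308, 0.209 and 0.139 FPKM in Ctrl and at 7.37, 10.1 and 8.60 in mG-cKO, a log2 difference of 2.98 ± 0.12 (SE; limma adjusted p = 1.3e-08). Gm11884 had a listed value of 0 in each Ctrl library and was at 6.11, 6.58 and 6.39 in mG-cKO, a log2 difference of 2.88 ± 0.16 (SE; limma adjusted p = 1.4e-07). The 3 mG-cKO values of Gm11884 lay closer together than those of the other called members, and neither member had overlapping groups.

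2310043L19Rik, which had been highest at P1, was at 2.79, 4.01 and 3.50 FPKM in mG-cKO at P21 and at 0.144, 0.0369 and 0.103 in Ctrl, a log2 difference of 2.01 ± 0.17 (SE; limma adjusted p = 1.62e-05). Gm45121 was at 1.67, 4.48 and 2.32 in mG-cKO and listed at 0.0410, 0 and 0 in Ctrl (log2 difference 1.85 ± 0.20, SE; limma adjusted p = 1e-04). AC125371.1 was at 2.18, 4.30 and 1.57 in mG-cKO and at 0.0117 to 0.0175 in Ctrl (1.79 ± 0.21, SE; limma adjusted p = 0.000159). In both of these, replicate 2 of mG-cKO was the highest library. 3222401L13Rik was at 2.0, 3.27 and 1.53 in mG-cKO and at 0.254, 0.178 and 0.156 in Ctrl, a log2 difference of 1.41 ± 0.18 (SE; limma adjusted p = 0.000289).

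The members with dispersed copies, Gm29084 and Gm43520, had the largest SEs at P21. Gm29084 was at 4.08, 6.43 and 1.66 FPKM in mG-cKO and at 0.241, 0.106 and 0.141 in Ctrl, with a log2 difference of 2.0 ± 0.31 (SE; limma adjusted p = 0.00188). Gm43520 was at 2.55, 2.70 and 4.84 in mG-cKO and at 0, 0.0807 and 0 in Ctrl, with 2.05 ± 0.34 (SE; limma adjusted p = 0.00305). Their copies moved with them. Of 39 genes alike to either, 30 passed the filter, 26 rose and 0 fell in mG-cKO against Ctrl, where 1.35% of all genes rose. Apart from Noct, Slc38a6 and Rab3gap1, the related genes summed to 4.39 to 6.34 FPKM in Ctrl. Most of them therefore passed the filter only through the mG-cKO libraries. Without the filter 27 of the 39 rose and 0 fell, where 0.753% of 38131 genes rose. Gm43798, a copy of Gm29084, reached 27.9 ± 15.3 FPKM (SD, n = 3) in mG-cKO and 0.136 ± 0.0741 (SD, n = 3) in Ctrl, more than either member. Because of their near-identical sequence, how reads were divided among these genes is uncertain, and they are not counted as separate observations.

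4833418N02Rik, raised at P1, was at 0.645, 0.953 and 0.574 FPKM in mG-cKO at P21 and at 0.642, 0.620 and 0.629 in Ctrl. The groups overlapped, and the log2 difference was 0.074, with a 95% interval of -0.24 to 0.39 (limma adjusted p = 0.948).

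**Figure D3:**
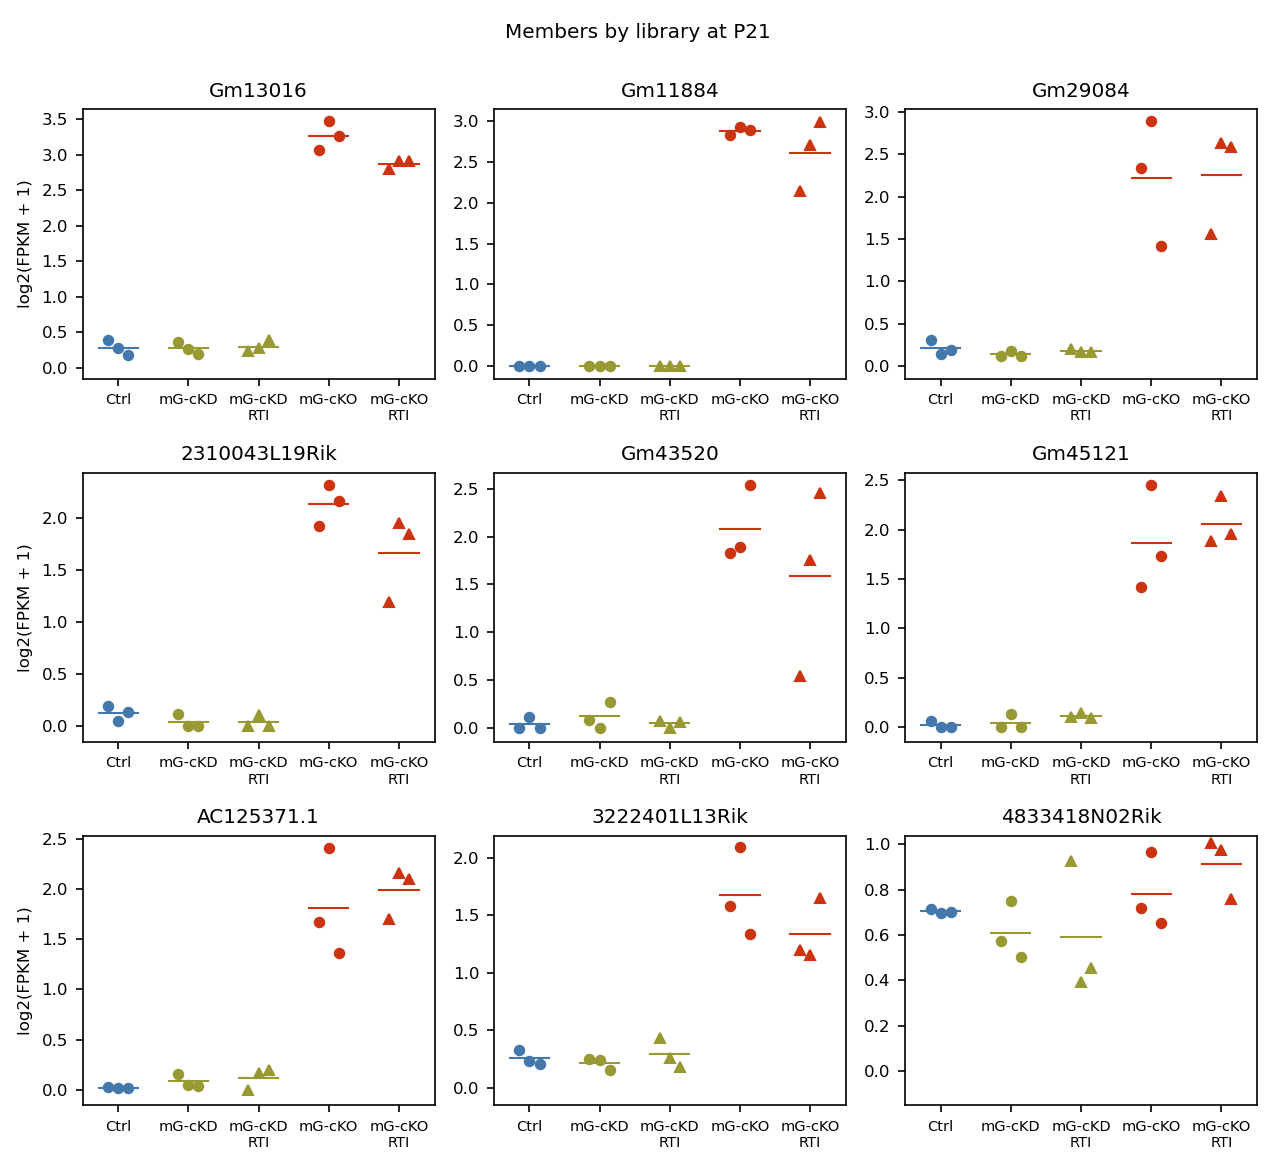
Level of each member, as log2(FPKM + 1), in every P21 library; circles are untreated, triangles RTI-treated, colours mark Ctrl (blue), mG-cKD (olive) and mG-cKO (red), and lines are group means. For 8 members both mG-cKO groups stand above the other 3 groups, with the RTI-treated libraries among them.

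The mG-cKD libraries, titled Het, had low levels of the members. 0 of 9 members passed the test against Ctrl, with 0 at an unadjusted p below 0.05, and log2 differences ran from -0.10 to 0.08; over all 16420 genes limma called 0%, with 231 at an unadjusted p below 0.05. Gm11884 was listed at 0 in all 3 mG-cKD libraries and in all 3 given RTI. 2310043L19Rik was at 0.0824, 0 and 0 in mG-cKD, and Gm13016 was at 0.292, 0.202 and 0.151, within the range of its Ctrl libraries. AC125371.1 was the 1 member with every mG-cKD library above every Ctrl library. It was at 0.119, 0.0376 and 0.0302 FPKM in mG-cKD and at 0.0175, 0.0117 and 0.0166 in Ctrl, both far below mG-cKO. Its log2 difference was 0.064, with a 95% interval of -0.38 to 0.51 (limma). The share of all genes that separate in this way was not counted. Against mG-cKD, 8 of 9 members rose in mG-cKO, in a comparison that uses the same mG-cKO libraries as that with Ctrl, with log2 differences of 1.46 to 2.99 for these 8 (limma; 1.06% of all genes rose), and 4833418N02Rik did not pass the test (0.17 ± 0.15, SE; limma adjusted p = 1).

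The called members stayed high in mG-cKO cortex given RTI. 0 of 9 passed the test for RTI against none in mG-cKO, where limma called 1 of 16420 genes, 0.00609%. 2 members were below an unadjusted p of 0.05 (limma), as were 649 of all 16420 genes tested. Gm13016 was at 5.99, 6.53 and 6.54 FPKM with RTI and at 7.37, 10.1 and 8.60 without, so its groups did not overlap; the log2 difference was -0.39, with a 95% interval of -0.66 to -0.12 (limma adjusted p = 0.962). 2310043L19Rik was at 1.29, 2.87 and 2.60 with RTI and at 2.79, 4.01 and 3.50 without, groups that overlapped, with a log2 difference of -0.48 and an interval of -0.84 to -0.11 (limma adjusted p = 0.962). The other 7 had log2 differences of -0.50 to 0.19.

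RTI did not give any member a call in mG-cKD cortex. There, 0 of 9 passed the test, 0 were below an unadjusted p of 0.05, and differences ran from -0.07 to 0.07; limma called 0% of all genes, with 353 below an unadjusted p of 0.05. The RTI effect did not pass a test of difference between mG-cKO and mG-cKD for any member, with 1 below an unadjusted p of 0.05, and limma called 0% of all genes, with 245 below it. With both genotypes under RTI, 8 of 9 members rose in mG-cKO against mG-cKD (limma), where 0.621% of all genes rose. Gm43520 was the least firm of these: it was at 0.457, 2.39 and 4.49 FPKM in mG-cKO with RTI, a log2 difference of 1.54 ± 0.34 (SE; limma adjusted p = 0.0464), and without the filter on low values its adjusted p was 0.148.

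Oligodendrocyte markers moved with the same groups at P21. All 8 listed markers fell in mG-cKO against Ctrl (limma), and their summed level was 312 to 486 FPKM in mG-cKO, 435 to 755 in mG-cKO with RTI, 2848 to 4389 in Ctrl and 2283 to 3000 in mG-cKD. At P1 their sum was 36.5 to 41.8 in mG-cKO and 31.7 to 37.6 in Ctrl, while the members already stood apart; at P14 it was 210 to 235 against 738 to 829, and at P45 134 to 470 against 590 to 2031. The summed level of the 8 microglial markers lay above Ctrl at P1, at 48.1 to 51.0 against 38.7 to 41.4, at P7, at 82.1 to 94.3 against 59.8 to 63.6, and at P14, at 149 to 155 against 127 to 144, and overlapped with it at P21 and P45. Of the 8 cortical excitatory neuron markers 0 passed the test at P21, with sums of 772 to 942 in mG-cKO and 749 to 824 in Ctrl. Their sum was below Ctrl at P7, at 277.5 to 290.9 against 317.3 to 329.6. It was also below at P14, at 334.1 to 340.9 against 382.3 to 385.1, and overlapped with Ctrl at P1 and P45. The sum for other brain regions was above Ctrl at P14, at 35.29 to 51.03 against 23.53 to 30.49. The meningeal sum was above at P7 (30.53 to 32.07 against 26.88 to 29.64) and P14 (23.1 to 24.35 against 19.24 to 20.35). At P21 it was also above, at 20.54 to 28.91 against 14.06 to 20.33. The astrocyte sum was above at P7, at 201.1 to 243.3 against 187.7 to 189.0. At the other ages these sums overlapped with Ctrl. The choroid plexus sum ran from 1.86 to 247.7 in Ctrl at P7 and from 6.85 to 246.8 at P14, against at most 5.64 in mG-cKO. At P45 it was above Ctrl, at 3.183 to 13.35 in mG-cKO against 1.468 to 2.019. Gfap, which reactive astrocytes raise, was the 1 of 6 astrocyte markers that rose, and 0 of 8 microglial, 0 of 4 choroid plexus, 0 of 4 meningeal, 0 of 5 erythroid and 0 of 5 other brain region markers tested passed (limma). In bulk tissue, fewer cells of a type and less RNA per cell cannot be told apart, and the part of cell makeup in the member differences was not tested.

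Genes next to the members were also compared at P21. They were the nearest genes on either side within 100 kb and the nearest protein-coding genes. Of those reported, 9 passed the filter, and 1 of these 9, Gm43521, rose in mG-cKO against Ctrl (limma). Of all genes tested, 1.35% rose. Gm43521 lies 3.316 kb from Gm43520 and is itself a copy of the Gm29084 sequence, at 15.96 ± 7.49 FPKM (SD, n = 3) in mG-cKO and 0.150 ± 0.0612 (SD, n = 3) in Ctrl. Below the filter, and so without a call, Gm7258, beside Gm45121, was at 0.745, 0.546 and 1.14 in mG-cKO and at 0.0493, 0.0174 and 0 in Ctrl, and Gm11888, beside Gm11884, was at 0.252, 0.276 and 0.177 in mG-cKO and at 0 in each Ctrl library. In both, no groups overlapped. 3222401L13Rik is a single exon (chr18:37655451-37661742, plus strand) within the introns of 3 longer gene models that run into the protocadherin cluster, which share no exon bases with it and were at 0 wherever listed. Pcdhga1, the first gene of the gamma cluster, begins 51 bases after it and was at 3.07 ± 0.942 (SD, n = 3) in mG-cKO and 2.09 ± 0.483 (SD, n = 3) in Ctrl (limma adjusted p = 0.564). Bdh1, beside AC125371.1, Bag3 and Inpp5f, beside Gm45121, and Arhgef10l, the coding gene nearest to Gm13016, did not pass the test either.

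**Figure D4:**
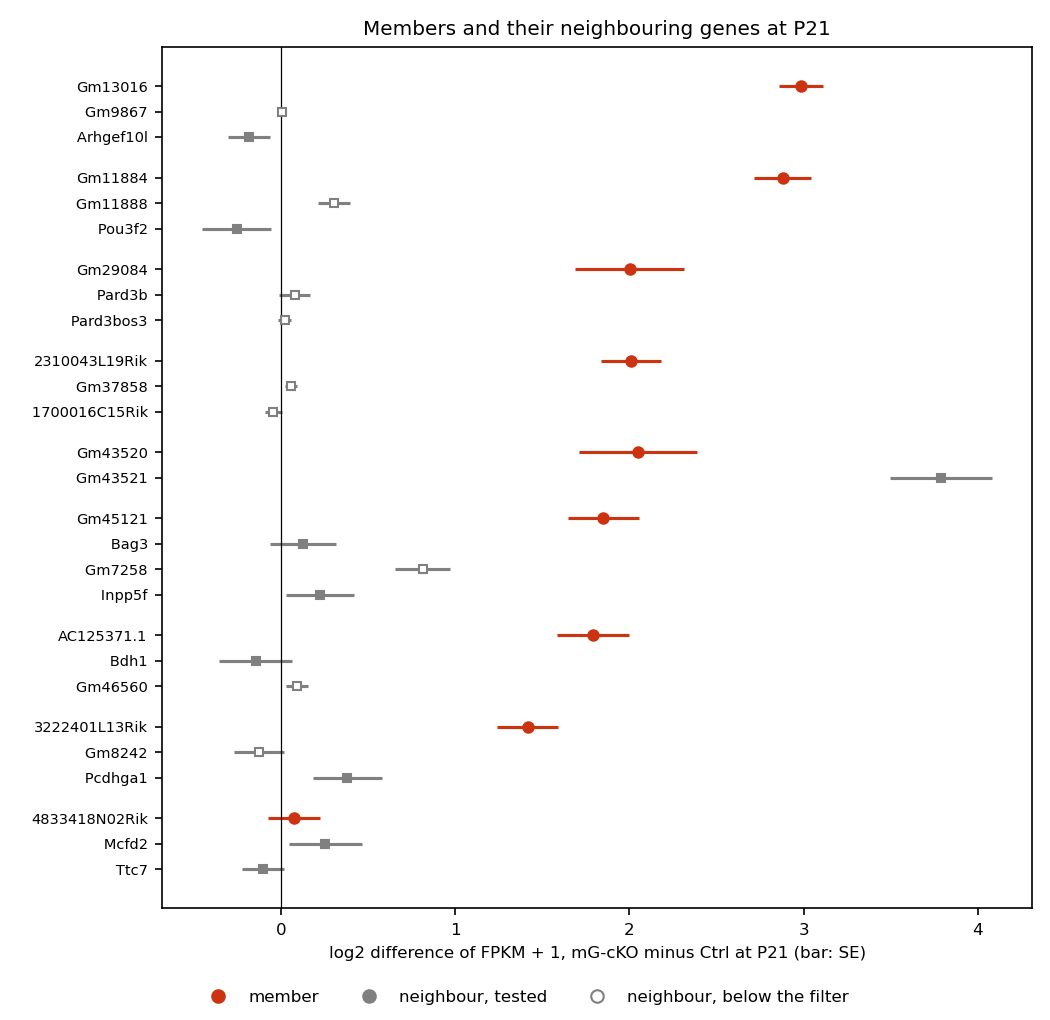
Log2 difference of FPKM + 1, mG-cKO minus Ctrl at P21, for each member (red) and the genes next to it (grey; open where below the filter), with bars for the SE; neighbours listed at 0 throughout are left out. Gm43521 is the neighbour that lies as far to the right as the members, while Ttc7 and 4833418N02Rik both lie near 0.

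At P1, Ttc7 and Gm37858 stood apart together with the member beside them. Ttc7, whose product in humans is a scaffold of a phosphatidylinositol 4-kinase complex, was at 3.56, 3.44 and 6.88 FPKM in mG-cKO at P1 and at 1.32, 1.2 and 2.48 in Ctrl, with 4833418N02Rik starting 72 bases away. It was at 1.91 and 2.20 in mG-cKO at P7 against 1.47 and 1.36 in Ctrl. At P45 its groups overlapped, with means of 2.53 ± 0.324 (SD, n = 3) in mG-cKO and 2.81 ± 0.477 (SD, n = 3) in Ctrl, and at P21 it did not pass the test (limma adjusted p = 0.891). Both genes of this pair were thus high in mG-cKO at P1 and near Ctrl by P45.

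Gm37858 lies 4.605 kb from 2310043L19Rik on the same strand. It was at a mean of 3.85 ± 1.45 FPKM (SD, n = 3) in mG-cKO at P1 and 1.61 ± 0.264 (SD, n = 2) at P7, and at 0.0640 ± 0.0461 (SD, n = 2) at P14 and 0.0415 ± 0.0408 (SD, n = 3) at P45. In Ctrl it was at 0.148 ± 0.0981 (SD, n = 3) at P1 and below that at later ages. Like 2310043L19Rik it went down with age, but to near 0. Of the 12 reported neighbours that passed the filter in the age series, 4 had all mG-cKO libraries above all Ctrl libraries at P1. They were Ttc7, Gm37858, Gm43521 and Gm7258, and 2.74% of all genes separated in this way. Gm37858, Gm43521 and Gm7258 passed the filter only through the mG-cKO libraries. At P7, P14 and P45, 7, 9 and 2 of the 12 lay above Ctrl, and 3, 3 and 1 lay below. Over all genes 20%, 23.5% and 4.69% lay above at these ages, and the share that lay below was not counted. Pcdhga1, beside 3222401L13Rik, was above Ctrl at P14, at 1.805 ± 0.2354 against 1.158 ± 0.27 (SD, n = 2 each). It was also above at P45, at 2.73 ± 0.6668 against 1.432 ± 0.6281 (SD, n = 3 each). At P1 and P7 its groups overlapped. Pou3f2, a neural transcription factor and the coding gene nearest to Gm11884 at 772.418 kb, had all its mG-cKO libraries below Ctrl at P1, at 11.01 ± 2.20 against 17.9 ± 1.65 (SD, n = 3 each).

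Lists of known genes put the members in context at P21. Of 20 germline genes 8 passed the filter and 4 rose in mG-cKO against Ctrl (limma), where 1.35% of all genes rose. The median log2 difference of the 8 was 0.69, against 0.065 over all genes tested. The 4 were Stag3 (a cohesin subunit of meiosis), Taf7l (a germ cell transcription factor subunit), Sycp3 (of the synaptonemal complex) and Ddx4 (a germ cell RNA helicase). Taf7l and Sycp3, at means of 0.130 and 0.119 FPKM in Ctrl, passed the filter only through the mG-cKO libraries. Stag3 was at 3.22, 5.29 and 3.63 FPKM in mG-cKO and at 0.469, 0.506 and 0.682 in Ctrl. In the age series Stag3 was the only one of these with all mG-cKO libraries above Ctrl at every age. The groups overlapped at P1 and P45 for Taf7l, at P7, P14 and P45 for Sycp3 and at P14 for Ddx4. Of 33 silencing factors of retroelements and germline genes 30 were tested, and 1 rose: Atf7ip, which binds the H3K9 methyltransferase SETDB1, at 16.6 ± 0.272 against 8.62 ± 2.53 (SD, n = 3 each; limma adjusted p = 0.0362). Of 18 known long noncoding RNAs of brain 14 were tested, 0 rose and 1 fell: Sox2ot, which overlaps Sox2, at 4.08 ± 1.24 against 8.59 ± 1.80 (SD, n = 3 each; limma adjusted p = 0.0149).

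The genes whose levels ran most like a member's over the 15 P21 libraries were, for 8 members, genes with the same split between mG-cKO and the rest, given as a description since all points share the genotype split. Gm13283 was nearest to Gm13016 (Pearson r = 0.996), followed by Gm13284 and Tcfl5, a germ cell transcription factor (r = 0.990). Gm11884 ran most like Gm13283, the protocadherin Pcdha8 and Skiv2l-ps1 (r = 0.990 for each). 3222401L13Rik ran most like Pcdhb17 (r = 0.982), Gm43107 and Stag3 (r = 0.977 for both).

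Many of the genes nearest to the remaining members were copies of the Gm29084 or Gm43520 sequence. Gm29084 was nearest to Gm42860 (r = 0.993), Gm37917 and Gm37385, and Gm43520 to Gm43535 (r = 0.988), its identical copy, Gm37091 and Gm44268. AC125371.1 was nearest to Gm37917 (r = 0.993), Gm44267 and Gm38226, and Gm45121 to Gm38226 (r = 0.984), Gm44267 and Gm42605. 2310043L19Rik was nearest to Gm43798 (r = 0.992), Gm37091 and Gm43521. Of these genes, Gm37917 and Gm37091 were not among the 39 copies and the others were. 4833418N02Rik had no close match: its best were Nfil3 (r = 0.848), Rps12 and Ppp1r3c.

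The CT and VPA libraries at P1 form a separate table, which holds only part of some gene lists. It has 1 of the 8 cortical excitatory neuron markers, 2 of the 6 astrocyte markers and 13 of the 33 silencing factors. Shares over all genes in this comparison therefore cover only the genes listed there. VPA 3 stood apart in this table. VPA 3 was the only one of the 6 libraries not in whole read steps, its FPKM summed to 150149 against 66557 to 72783 in the other 5, and its correlation with them across genes was 0.625 to 0.721, against 0.829 to 0.958 among them. Its erythroid marker sum was 439 FPKM, against 11.2 to 42.1 in the others. Its member levels were at or near those of CT, whereas VPA 1 and VPA 2 had all 9 members above every CT library. With so few libraries such a separation is easily met, and the share of all genes that meets it was not counted.

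2310043L19Rik was at 0 FPKM in each CT library, at 27.3 and 32.5 FPKM in VPA 1 and VPA 2 and at 0.0763 in VPA 3. Gm11884 was at 0.115, 0 and 0 in CT, at 9.10 and 9.69 in VPA 1 and VPA 2 and at 0.107 in VPA 3. 4833418N02Rik was at 2.14, 1.78 and 2.21 in CT, at 11.3 and 9.16 in VPA 1 and VPA 2 and at 1.68 in VPA 3. In each of these VPA 3 fell within or beside the CT values. AC125371.1 was at 6.24 and 6.12 in VPA 1 and VPA 2, Gm29084 at 6.14 and 6.44, Gm43520 at 5.59 and 7.71 and Gm45121 at 3.86 and 5.91. For these 4, VPA 3 was at 0 to 0.274 and CT at 0 to 0.267.

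Gm13016 and 3222401L13Rik had smaller differences. Gm13016 was at 0.687, 0.462 and 0.209 FPKM in CT and at 1.83, 2.62 and 0.382 in VPA, and 3222401L13Rik was at 0.200, 0.0804 and 0.147 in CT and at 1.32, 1.39 and 0.407 in VPA. For 3222401L13Rik, VPA 3 lay above all CT libraries but well below VPA 1 and VPA 2. Ttc7 was at 5.30 and 5.5 in VPA 1 and VPA 2, at 2.52 in VPA 3 and at 0.744 to 1.07 in CT. Gm37858, beside 2310043L19Rik, was listed at 0 in CT and ran from 0.24 to 5.09 in VPA.

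With all 6 libraries, 0 of 9 members passed the test of VPA against CT, 6 were below an unadjusted p of 0.05, and the median log2 difference was 1.78 against 0.12 over all genes; limma called 0% of 11264 genes, with 2644 below an unadjusted p of 0.05. Without VPA 3, 9 of 9 members rose, where 2.01% of 11078 genes rose (limma), but 8 of 9 had a CT mean under 0.5 FPKM and passed the filter only through VPA 1 and VPA 2. With neither VPA 3 nor the filter, an alternative added after seeing the data, 6 of 9 rose, where 0.0654% of 25999 genes rose, and Gm13016, Gm45121 and 3222401L13Rik did not pass (limma adjusted p = 0.129, 0.0595 and 0.0987). With the filter, the log2 differences without VPA 3 were 1.05 to 4.95, with 4.95 ± 0.13 (SE; limma adjusted p = 0.000516) for 2310043L19Rik and 1.15 ± 0.20 (SE; limma adjusted p = 0.0498) for Gm13016. The result thus rests on which VPA libraries are used and, for these 3 members, on the filter, and with 2 VPA libraries left the labels give no ground to choose between them. Of the germline list, Stag3 and Tdrkh were the 2 of 6 tested that rose without VPA 3. Other genes of that list that rose in mG-cKO at P21 went different ways. Ddx4 in VPA 1 and VPA 2 was above every CT library, and Sycp3 overlapped with CT. Taf7l was at 0.613 and 0.539 FPKM in VPA 1 and VPA 2, below CT at 1.32, 0.966 and 1.03. The part of library processing, blood content and sample identity in the difference between VPA 3 and the other VPA libraries was not tested.

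**Figure D5:**
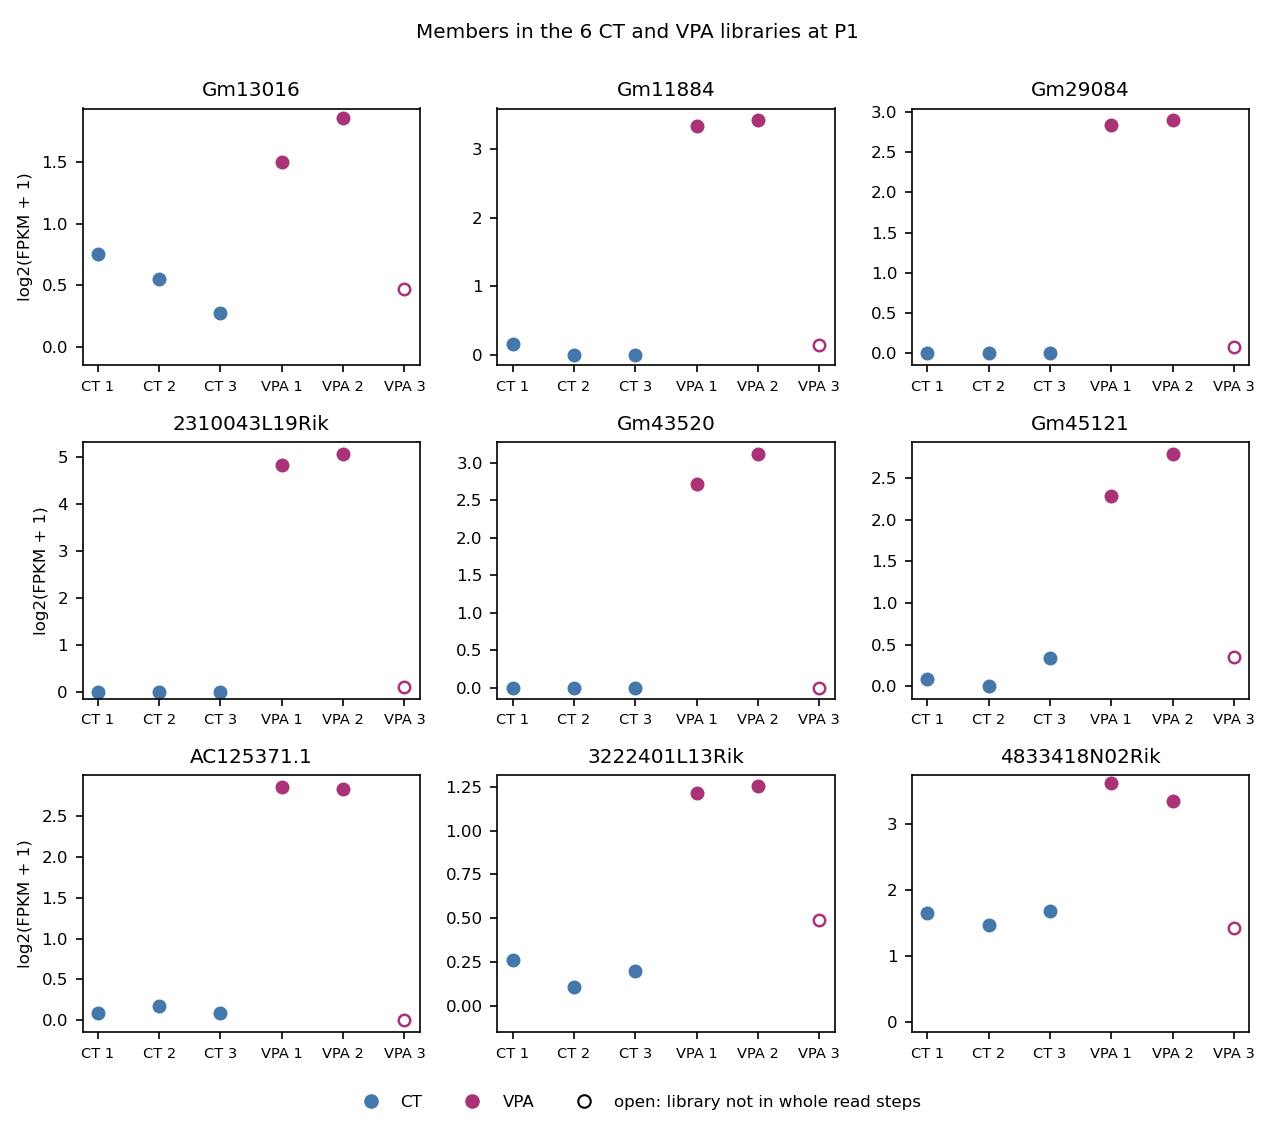
Level of each member, as log2(FPKM + 1), in the 3 CT (blue) and 3 VPA (purple) libraries at P1; the open point is VPA 3, whose values are not whole read steps. VPA 1 and VPA 2 stand above all CT libraries for each member, and VPA 3 lies at or near CT levels.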

How the data were processed

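The authors deposited FPKM tables per gene; FPKM is a level per exon length and library size. Per the submitters' processing notes, mm10, featureCounts 2.0.4, STAR 2.5.3a and Trim Galore 0.6.5 were used, in roles not given. Per the labels' protocols, TRIzol served for extraction and a NEB Next Ultra kit for the libraries. The age, P21 and CT and VPA tables were used through their 41 labelled columns, each table apart; the NPC libraries were not used here. The members and gene lists were chosen with earlier results of these data known.

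Genes whose mean reached 0.5 FPKM were fitted as log2(FPKM + 1) with limma 3.58.1 (R 4.3.3), using group means and trended, robust variances, over 15 P21 and 6 CT and VPA libraries, in 8 comparisons. Adjusted p-values (Benjamini-Hochberg, over all genes tested) had to be below 0.05. The fit was tested on simulated data. Transcripts were compared with blastn 2.17.0 against GENCODE M21. Named were all members, their neighbours within 100 kb and nearest coding genes, the 3 genes most like each, and up to 4 called genes per list. A neighbour of 1 member is not reported here.

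The reported tests were not paired, and a replicate block was fitted only as an alternative. Replicate numbers were taken as possible pairs where same-numbered libraries correlated above 0.1 after group means were removed. This held for mG-cKO against Ctrl (0.157, 0.125 and 0.698) and against mG-cKD at P21 (0.522, 0.331 and 0.693). Against Ctrl only 1 mG-cKO library correlated best with its own number, and against mG-cKD 3 did. The labels state no pairing. Alternatives were the pseudocount, the filter, scaling to a common median, a replicate block, the groups or variance model fitted, and leaving out each library; 1 more was added after seeing the data. Counting errors and floors of 3 reads cover counting error only.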

Additional observations from a re-analysis of the deposited data

How the results depend on the processing

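The 8 counts of members called were recomputed under 95 alternatives, and 93 stayed within 1.5 times the value reported. The exceptions were in VPA against CT, where leaving out 1 library at a time gave 0 to 9 members called: 9 without VPA 3 and 0 without any other library. With neither VPA 3 nor the filter on low values, an alternative added after seeing the data, it was 6. With 0 calls as the starting point, the other alternatives of that comparison test little. The same holds for mG-cKD against Ctrl, for RTI in either genotype and for the difference of the RTI effects, which also started from 0 calls. With the replicate block, 8 members were again called in mG-cKO against Ctrl at P21, 8 against mG-cKD, and no other count moved by over 1.5 times. The 18 member differences of mG-cKO against Ctrl and of RTI in mG-cKO at P21 were run under 198 alternatives in all, of which 191 kept their direction and side of the threshold, and the 7 that turned direction belonged to differences that were never called. Leaving out 1 library at a time, 4833418N02Rik in mG-cKO against Ctrl ran from -0.019 (without mG-cKO replicate 2) to 0.137. The RTI difference in mG-cKO ran from -0.032 (without mG-cKO replicate 1) to 0.486 for Gm45121, from -0.936 to 0.021 (without mG-cKO RTI replicate 1) for Gm43520, and from -0.052 (without mG-cKO replicate 3) to 0.472 for AC125371.1. For Gm29084 it ran from -0.359 to 0.391, below 0 without mG-cKO replicate 3 (-0.359), mG-cKO RTI replicate 2 (-0.142) or mG-cKO RTI replicate 3 (-0.119); the cause was not tested. In the age series the 36 member differences stayed above 0 under each of 270 alternatives run. The members were chosen for higher mG-cKO values in these same libraries, so this direction was largely set in advance and lends no support. A pseudocount of 0.1 moved all 36 by more than the replicate spread, by construction for genes near 0. Scaling to a common median moved 8 of 36 by more than that spread, and leaving out libraries moved 0; the cause was not tested. The promoter windows of other lengths were not run, since no genome sequence was used here. Depth is unknown for 20 of 41 libraries, including every one at P21, so no counting floor could be given there.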
